A study of Mus musculus with 10 samples.

Results

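The 36 genes described here make or handle cholesterol and fatty acids: 19 enzymes of sterol synthesis, 10 enzymes of fatty acid synthesis and desaturation, 5 regulators of the SREBP pathway and 2 genes of sterol transport. They were chosen by name from these pathways, with earlier results of these data known. They were matched by Ensembl identifier to the 49671 gene rows of the deposited count table. Each of the 36 was found, and each passed the filter on low counts. The cells were bone marrow-derived mast cells (BMMCs), grown from the marrow of wild-type C57BL/6 mice in interleukin-3 (IL-3). The age label gives 6 to 8 weeks, and the cultures were kept in IL-3 for 6 to 8 weeks before stimulation. All 6 groups had IL-3, for which the labels give both 5 and 10 ng/mL. Of these, 3 had stem cell factor (SCF): SCF at 100 ng/mL for 72 h (2 libraries), SCF with 1 ng/mL transforming growth factor-β (TGF-β) for 72 h (2 libraries) and SCF with 10 ng/mL TGF-β for 72 h (2 libraries). The others had TGF-β alone at 1 ng/mL for 72 h (1 library), TGF-β alone at 10 ng/mL for 72 h (1 library), and IL-3 alone (2 libraries). The SCF dose in the combinations and the time of the IL-3 group are not given in the labels. Nothing says that replicates came from separate cultures or animals, so p-values measure the spread between these libraries, which may be technical.

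Cholesterol is built from acetyl-CoA through mevalonate, isoprenoid diphosphates, squalene and lanosterol, and fatty acids are built from the same acetyl-CoA through malonyl-CoA. Both branches are under the SREBP transcription factors. Scap escorts these out of the endoplasmic reticulum when sterols are scarce, and the Insig proteins hold them there when sterols are plentiful. SREBP-2, from Srebf2, is best known for sterol genes and SREBP-1, from Srebf1, for fatty acid genes. Mast cells use membrane sterols in the domains where the IgE receptor signals, and polyunsaturated fatty acids as the source of their leukotrienes and prostaglandins. SCF is the ligand of the receptor tyrosine kinase Kit and drives mast cell growth and survival.

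Levels are given as CPM, the count of a gene relative to the total of its library as scaled by the TMM method, and differences as log2 fold changes with their standard error (SE). A gene was called when edgeR's quasi-likelihood test, fitted over all 11247 genes that passed the filter, gave a Benjamini-Hochberg adjusted p under 0.05. Where groups are said not to overlap, this only describes their few libraries. The share of all genes without overlap was counted only for the 6 libraries with SCF against the 4 without. Absence of overlap therefore adds no support to a gene that was not called. Total gene counts were 1237382 to 2323916 per library, so that 3 counts corresponded to 1.29 to 2.42 CPM. The share of reads that were not uniquely aligned was 37.2% to 43.2% in the 6 libraries with SCF and 42.7% to 55.6% in the 4 without, and its part in the results was not tested. The 7 mast cell markers Kit, Fcer1a, Ms4a2, Cpa3, Tpsb2, Hdc and Gata2 summed to 33122 to 62755 CPM, while the listed macrophage markers summed to 12.0 to 20.2 CPM, with 2 of 7 at 0 counts throughout. Mast cell markers were also called between groups. Tpsb2 (log2 fold change 1.07) and Cpa3 (0.69) rose with SCF over IL-3. Hdc, Cpa3 and Fcer1a fell with TGF-β added to SCF at each dose. They also fell with TGF-β alone over IL-3, where Tpsb2 rose. With SCF and TGF-β over TGF-β alone, Cpa3 rose and Kit fell. Kit also fell with 10 ng/mL TGF-β added to SCF. Their part in the results was not tested. No listed neutrophil, lymphocyte, fibroblast, erythroid and platelet or adipocyte marker passed the filter on low counts. Of the eosinophil markers Epx and Prg2 were at 0 counts in all libraries, and Siglecf and the 3 basophil markers, which passed, are given beside the comparisons with SCF.

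Per kilobase of exon, averaged over the 10 libraries, the members ranged from 46.1 CPM per kb for the desaturase gene Fads1 and 40.7 CPM per kb for Acly to 1.04 CPM per kb for Acaca. The isomerase gene Ebp at 33.8, Hmgcs1 at 26.5 and Sqle at 24.3 CPM per kb had the highest levels per length of the sterol enzymes on that average, and Fdps at 1.29 CPM per kb the lowest. The order differed between groups: Acly was highest in the 3 groups with SCF, at 41.1 to 48.6 CPM per kb, and Fads1 in the 3 without, at 45.0 to 70.9 CPM per kb. The lowest member was Fdps or Elovl6 with SCF, at 0.670 to 1.39 CPM per kb, and Scd1 without it, at 0.159 to 0.265 CPM per kb. Some levels are uncertain because exons are shared with other genes: 12.1% of the exon bases of Hmgcs1, 26.7% of Fdps, 18.3% of Fdft1, 12.1% of Tm7sf2 and 13.2% of Scap overlapped another annotated gene, and whether counting used strand is not given in the sources used here. Reads may also be split between the near-identical pairs Scd1 and Scd2, and Acat2 and Acat3.

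The 19 sterol enzymes together reached 1435 and 1443 CPM with SCF, 1433 and 1168 CPM when 1 ng/mL TGF-β was added, and 1238 and 1123 CPM when 10 ng/mL was added. They reached 466 and 483 CPM with TGF-β alone at 1 and 10 ng/mL, and 764 and 586 CPM with IL-3 alone. Every library with SCF was thus above every library without it, and the libraries with TGF-β alone were the lowest. The 10 fatty acid enzymes summed to 1166 and 1035 CPM with SCF, 1200 and 1031 CPM when 1 ng/mL TGF-β was added, and 1110 and 926 CPM when 10 ng/mL was added. With TGF-β alone they summed to 1130 and 1077 CPM, and with IL-3 alone to 805 and 780 CPM. Here the libraries with TGF-β alone lay within the range of the SCF libraries. Without Acss2 and Fads1, which were singled out after their values were seen, the other 8 summed to 316 and 338 CPM with TGF-β alone, 291 to 415 CPM with IL-3 alone and 593 to 795 CPM in the 6 libraries with SCF. The ratio of the sterol sum to the fatty acid sum was 1.12 to 1.39 with SCF, with or without TGF-β, 0.412 and 0.448 with TGF-β alone, and 0.950 and 0.751 with IL-3 alone.

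**Figure D1:**
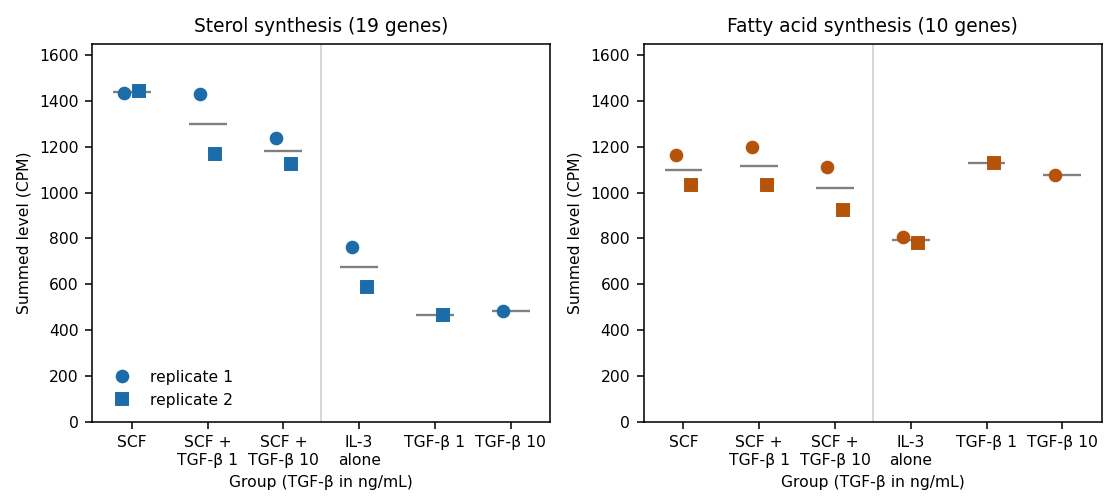
Summed CPM of the 19 sterol enzymes and the 10 fatty acid enzymes in each of the 10 libraries (points), with lines at the group means. The sterol sums lay between 1123 and 1443 CPM in the 6 libraries with SCF and between 466 and 764 CPM in the 4 without, whereas the fatty acid sums with TGF-β alone, 1130 and 1077 CPM, lay within the range of the SCF libraries.

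Promoter windows, 250 bases before to 50 after the transcript start in RefSeq on GRCm38.p6, were found for 28 of the 36 members. They were searched on both strands for TCACNCCA, a core of the sterol response element that SREBP binds, and for CCAAT, the box of the factor NF-Y, which is known to act with SREBP at sterol genes. These letters can overlap by 3 bases but did not in the windows printed. A CCAAT box was present in 15 of 16 sterol enzymes (93.8%), 4 of 7 fatty acid enzymes (57.1%) and 4 of 5 regulators, against 41.1% of the 27025 genes with a window of the same length and 43.2% of the 8388 of them tested here. The TCACNCCA core was present in 2 of 16 sterol enzymes, Hmgcs1 and Msmo1, in 0 of 7 fatty acid enzymes and in 1 of 5 regulators, Srebf2, against 4.97% of all genes with a window. A match is a description of letters and not of a site, and no match says only that these letters are not in the window. The windows of the 3 members with both motifs are shown first. Cyp51 and Fasn follow, the sterol and the fatty acid enzyme with the smallest adjusted p with SCF over IL-3, and then Acss2, which went the opposite way. Capitals mark the TCACNCCA and CCAAT matches, or their reverse complements.
Hmgcs1 (chr13:119690101-119690400, plus strand): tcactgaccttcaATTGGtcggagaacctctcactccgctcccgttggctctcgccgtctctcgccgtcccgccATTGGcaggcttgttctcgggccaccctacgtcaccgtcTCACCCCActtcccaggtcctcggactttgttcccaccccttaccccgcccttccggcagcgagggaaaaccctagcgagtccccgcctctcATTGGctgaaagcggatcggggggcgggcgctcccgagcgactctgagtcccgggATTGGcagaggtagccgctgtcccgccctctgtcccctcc
Msmo1 (chr8:64733529-64733828, minus strand): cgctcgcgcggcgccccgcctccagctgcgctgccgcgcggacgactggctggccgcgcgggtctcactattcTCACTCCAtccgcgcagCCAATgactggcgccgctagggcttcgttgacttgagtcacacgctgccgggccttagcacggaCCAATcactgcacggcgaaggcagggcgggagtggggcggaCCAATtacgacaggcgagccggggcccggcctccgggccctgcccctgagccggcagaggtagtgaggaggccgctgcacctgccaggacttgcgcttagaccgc
Srebf2 (chr15:82147019-82147318, plus strand): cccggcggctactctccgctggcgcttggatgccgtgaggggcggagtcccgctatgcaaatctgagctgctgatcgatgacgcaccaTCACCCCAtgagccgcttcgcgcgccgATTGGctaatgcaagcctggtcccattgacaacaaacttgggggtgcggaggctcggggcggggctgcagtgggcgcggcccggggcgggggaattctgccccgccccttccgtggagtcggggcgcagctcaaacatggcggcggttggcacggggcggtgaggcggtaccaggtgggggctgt
Cyp51 (chr5:4104648-4104947, minus strand): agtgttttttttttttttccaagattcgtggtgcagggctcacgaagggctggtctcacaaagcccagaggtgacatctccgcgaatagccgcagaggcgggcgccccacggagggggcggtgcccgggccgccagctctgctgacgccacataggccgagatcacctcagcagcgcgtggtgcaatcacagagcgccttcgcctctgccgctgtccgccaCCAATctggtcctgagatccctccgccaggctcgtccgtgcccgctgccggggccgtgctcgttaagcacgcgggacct
Fasn (chr11:120824498-120824797, minus strand): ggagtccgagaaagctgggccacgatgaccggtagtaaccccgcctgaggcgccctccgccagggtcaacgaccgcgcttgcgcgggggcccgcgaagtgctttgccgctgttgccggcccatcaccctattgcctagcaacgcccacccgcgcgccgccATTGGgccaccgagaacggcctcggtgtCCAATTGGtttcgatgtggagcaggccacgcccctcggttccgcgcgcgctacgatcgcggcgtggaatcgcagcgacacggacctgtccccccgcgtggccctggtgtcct
Acss2 (chr2:155517793-155518092, plus strand): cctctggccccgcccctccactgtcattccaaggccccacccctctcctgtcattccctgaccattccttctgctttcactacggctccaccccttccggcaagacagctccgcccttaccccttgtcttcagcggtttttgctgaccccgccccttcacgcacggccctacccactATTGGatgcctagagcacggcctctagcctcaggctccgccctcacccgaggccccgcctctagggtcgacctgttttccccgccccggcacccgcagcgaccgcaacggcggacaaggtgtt

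Counted from the transcript start, the core began at -137 in Hmgcs1, -177 in Msmo1 and -162 in Srebf2, and CCAAT boxes in either orientation began at -237, -176, -45 and 10 in Hmgcs1, at -160, -96 and -55 in Msmo1 and at -135 in Srebf2. Cyp51 had 1 CCAAT box, at -29, and Acss2 had 1, at -73. Fasn had 3, at -90, -62 and -59, of which the last pair share bases in opposite orientation.

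SCF against IL-3 alone asks what Kit stimulation adds to cells already held in IL-3. Of the 19 sterol enzymes 14 rose with SCF and 0 fell, with enzymes of the early, middle and late steps among them, where 5.71% of all genes tested rose and 9.17% changed in either direction. All 19 had a positive log2 fold change, with a median of 1.15, against -0.02 over all genes. The members were chosen with earlier results of these data known. Here and below, the shares of all genes therefore only describe them and are no test. In bulk samples such as these, a change in the mix of cells and a change in RNA per cell cannot be told apart.

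The first steps take acetyl-CoA to mevalonate and on to isoprenoid diphosphates. Acat2, the cytosolic acetoacetyl-CoA thiolase, had 30.0 and 41.0 CPM with SCF, against 14.0 and 11.2 CPM with IL-3 alone, a log2 fold change of 1.46 ± 0.29 (SE, 2 libraries each; adjusted p = 0.00516). Hmgcs1, which makes HMG-CoA, had 184 and 164 CPM with SCF, against 86.5 and 48.4 CPM with IL-3 (1.34 ± 0.23, adjusted p = 0.00173). In both genes each SCF library was above each IL-3 library, as in the 3 genes that follow. Mevalonate kinase, Mvk, had 51.1 and 47.9 CPM with SCF, against 20.7 and 14.0 CPM with IL-3 (1.48 ± 0.24, adjusted p = 0.00118). Mvd, the mevalonate diphosphate decarboxylase, had 40.5 and 37.2 CPM with SCF, against 17.6 and 2.81 CPM with IL-3 (1.81 ± 0.40, adjusted p = 0.00947). The isomerase Idi1 had 14.5 and 15.8 CPM with SCF, against 3.11 and 3.51 CPM with IL-3 (2.18 ± 0.52, adjusted p = 0.0141). Pmvk, Fdps and Ggps1 did not pass the test. Phosphomevalonate kinase, Pmvk, had 17.0 and 22.1 CPM with SCF and 13.5 and 16.1 CPM with IL-3. The geranylgeranyl diphosphate synthase Ggps1, which leads away from sterols to protein prenylation, had 23.5 and 25.8 CPM with SCF and 22.8 and 25.3 CPM with IL-3. The groups overlapped in Ggps1 but not in Pmvk, and Fdps was at 2.81 to 6.01 CPM in these 4 libraries.

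The committed sterol branch starts where squalene synthase, Fdft1, joins farnesyl units, and it had 50.1 and 43.5 CPM with SCF, against 29.5 and 12.6 CPM with IL-3 (1.10 ± 0.29, adjusted p = 0.0254). Squalene epoxidase, Sqle, a rate-limiting enzyme of this branch, had 214 and 208 CPM with SCF and 108 and 97.5 CPM with IL-3, which is 2.04-fold (1.03 ± 0.15, adjusted p = 0.00031). Replicates of Sqle lay close together in both groups, whereas the IL-3 replicates of Fdft1 lay further apart. Lanosterol synthase, Lss, which closes the sterol rings, had 199 and 207 CPM with SCF, against 112 and 93.3 CPM with IL-3 (0.98 ± 0.16, adjusted p = 0.00135). Cyp51, which removes a methyl group from lanosterol, had 109 and 138 CPM with SCF and 46.6 and 40.7 CPM with IL-3, 2.80-fold with the smallest adjusted p of the sterol list, 0.000103.

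The late enzymes turn lanosterol into cholesterol, and 5 of the 7 that follow Cyp51 rose. The methylsterol oxidase Msmo1 had 169 and 165 CPM with SCF, against 92.8 and 55.4 CPM with IL-3 (1.15 ± 0.22, adjusted p = 0.00331). Its partner in demethylation, Nsdhl, had 72.1 and 73.7 CPM with SCF, against 37.8 and 23.9 CPM with IL-3 (1.21 ± 0.23, adjusted p = 0.00301). The SCF libraries lay close together in these 2 genes and above both IL-3 libraries. The reductase Hsd17b7 had 11.5 and 15.1 CPM with SCF, against 5.70 and 1.40 CPM with IL-3, low counts behind a log2 fold change of 1.77 ± 0.53 (adjusted p = 0.0446). Tm7sf2, another sterol reductase, had 22.5 and 15.8 CPM with SCF, against 7.25 and 7.02 CPM with IL-3 (1.43 ± 0.39, adjusted p = 0.0307). The desaturase Sc5d had 76.1 and 73.1 CPM with SCF, against 46.1 and 33.7 CPM with IL-3 (0.89 ± 0.19, adjusted p = 0.00897). The groups did not overlap in any of these genes. The isomerase Ebp, with 89.6 and 103 CPM with SCF and 62.7 and 67.4 CPM with IL-3 (adjusted p = 0.0546), was not called. Neither was Dhcr7, the enzyme of the last step, with 56.1 and 42.2 CPM with SCF and 32.6 and 28.8 CPM with IL-3 (adjusted p = 0.148). The groups did not overlap in either gene, but the share of all genes without overlap in this comparison was not counted.

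Among the 10 fatty acid enzymes 5 rose and 1 fell with SCF, where 5.71% and 3.46% of all genes did, and the median log2 fold change was 1.14. Fasn, the fatty acid synthase, had 220.3 and 253 CPM with SCF, against 88.1 and 73.7 CPM with IL-3, 2.90-fold (1.54 ± 0.16) and the smallest adjusted p of all members, 1.90e-05. Acaca, the acetyl-CoA carboxylase that supplies its malonyl-CoA, had 23.0 and 29.0 CPM with SCF, against 13.0 and 5.61 CPM with IL-3 (1.41 ± 0.36, adjusted p = 0.0215). Both steps of chain building were therefore above IL-3 in each SCF library. The stearoyl-CoA desaturase Scd2 had 184 and 126 CPM with SCF, against 48.2 and 32.3 CPM with IL-3 (1.93 ± 0.29, adjusted p = 0.000592). Scd1, its paralog, had 26.0 and 17.0 CPM with SCF, against 2.59 and 0 CPM with IL-3 (adjusted p = 0.00133); the groups held 79 and 5 counts, a ratio of 14.8 with a 95% counting interval of 6.08 to 46.8. Both desaturase genes lie on chromosome 19 (Scd2 at chr19:44293674-44306864 and Scd1 at chr19:44394455-44407879, GRCm38), and neither SCF library of either gene was within the IL-3 range. The elongase Elovl6 had 17.0 and 17.0 CPM with SCF, against 7.77 and 1.40 CPM with IL-3 (1.77 ± 0.50, adjusted p = 0.0364).

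Acss2, which makes acetyl-CoA from acetate rather than from citrate, was the 1 member that fell: it had 166 and 125 CPM with SCF, against 204 and 244 CPM with IL-3 (-0.61 ± 0.18, adjusted p = 0.0482). Acly, the ATP-citrate lyase that feeds both branches, had 248 and 262 CPM with SCF and 207 and 147 CPM with IL-3 (adjusted p = 0.0513). Me1, the malic enzyme that supplies NADPH, had 7.51 and 6.30 CPM with SCF and 7.77 and 4.91 CPM with IL-3, with overlapping groups. The desaturases of polyunsaturated fatty acids did not pass the test either: Fads1 had 205 and 150.0 CPM with SCF and 187 and 246 CPM with IL-3, again overlapping. Fads2 had 70.1 and 49.8 CPM with SCF and 39.9 and 25.3 CPM with IL-3 (adjusted p = 0.0593).

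Of the 5 regulators 2 rose. Insig1, itself a known SREBP target, had 92.1 and 76.9 CPM with SCF, against 45.6 and 30.2 CPM with IL-3 (1.14 ± 0.25, adjusted p = 0.00854). Srebf1 had 154 and 138 CPM with SCF, against 94.8 and 86.3 CPM with IL-3 (0.69 ± 0.16, adjusted p = 0.012). Srebf2 was at 109 and 111 CPM with SCF and 91.2 and 98.2 CPM with IL-3, and Scap was at 26.0 and 24.0 CPM with SCF and 23.8 and 39.3 CPM with IL-3. Insig2 was at 17.5 and 21.4 CPM with SCF and 29.0 and 25.3 CPM with IL-3, and none of these 3 was called. Stard4, a carrier of cholesterol between membranes, rose to 85.6 and 66.2 CPM with SCF, against 49.2 and 25.3 CPM with IL-3 (1.00 ± 0.26, adjusted p = 0.0217). Npc1, which exports cholesterol from lysosomes, was not called and had 37.5 and 36.6 CPM with SCF and 34.2 and 33.7 CPM with IL-3.

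The number of calls with SCF depended on single libraries. Without IL-3 replicate 2, in which most sterol enzymes were lower than in replicate 1, 4 sterol enzymes were called, Mvk, Sqle, Lss and Cyp51, and the share of all genes that rose dropped as well, to 1.39%. The 10 others kept log2 fold changes of 0.67 to 2.25 at adjusted p of 0.0517 to 0.293. Without SCF replicate 2, 9 were called, where 2.08% of all genes rose. Fasn, Scd1 and Scd2 were the 3 fatty acid enzymes called in either of these fits. Without IL-3 replicate 2 the adjusted p was 0.314 for Acss2, 0.122 for Srebf1, 0.133 for Insig1 and 0.234 for Stard4. DESeq2 called 8 of the 11 sterol enzymes and 2 of the 6 fatty acid enzymes to which it gave an adjusted p. Of all 11247 genes, with or without an adjusted p, it called 4.19%. Proliferation genes were also higher with SCF, 8 of the 10 listed, which summed to 649 and 701 CPM with SCF, against 103 and 304 CPM with IL-3; their part in the result was not tested.

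Of the 3 listed basophil markers 1 rose and 1 fell with SCF over IL-3, both on few counts. Mcpt8 had 7.01 and 6.30 CPM with SCF, against 0.518 and 1.40 CPM with IL-3 (adjusted p = 0.0449), and Prss34 had 2.50 and 4.41 CPM with SCF, against 14.0 and 15.4 CPM with IL-3 (adjusted p = 0.0307). Neither call held when any 1 of these 4 libraries was left out. Cd200r3 made up most of the list and was not called, and the list summed to 591 to 619 CPM with SCF, against 539 to 660 CPM with IL-3. Siglecf had 0.501 and 0 CPM with SCF and 1.55 and 3.51 CPM with IL-3 and was not called. The part of these markers in the result was not tested.

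**Figure D2:**
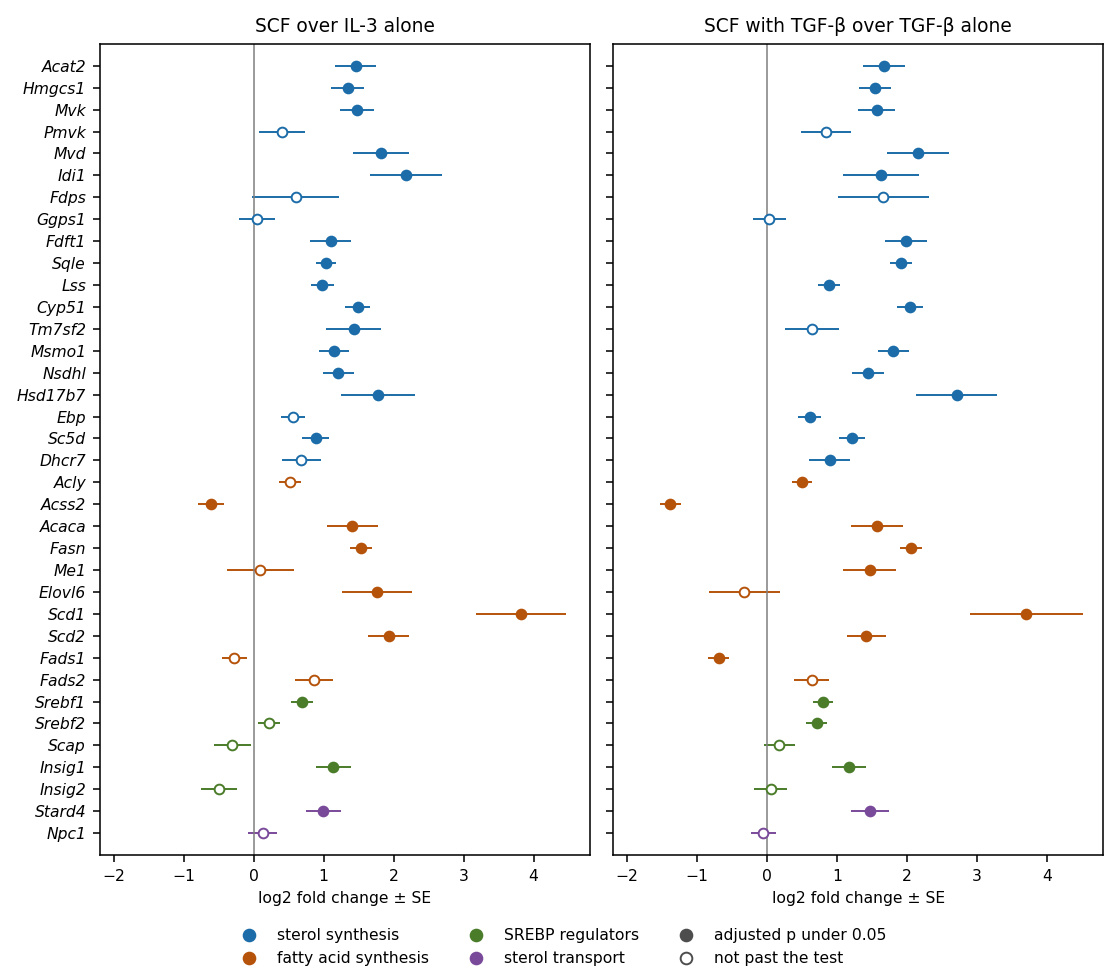
Log2 fold change ± SE of each of the 36 members, for SCF over IL-3 alone on the left and for SCF with TGF-β over TGF-β alone on the right, coloured by list; filled points had an adjusted p under 0.05. With SCF over IL-3, 14 sterol and 5 fatty acid enzymes rose and Acss2 fell; in cells given TGF-β, 15 sterol and 6 fatty acid enzymes rose and Acss2 and Fads1 fell.

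SCF was next compared in cells that also had TGF-β, as the mean of both doses of SCF with TGF-β (4 libraries) against the mean of both doses of TGF-β alone (2 libraries). This comparison shares no library with SCF against IL-3, but both used a spread fitted over all libraries. Same-numbered libraries of the SCF groups also deviated together (r = 0.20 to 0.23 across genes), so the comparisons are not fully independent. Of 19 sterol enzymes 15 rose and 0 fell, with a median log2 fold change of 1.57, and of 10 fatty acid enzymes 6 rose and 2 fell. Many genes changed in this comparison, 13.3% of all tested upward, 11.4% downward and 24.7% in either direction. The 2 comparisons shared 13 sterol enzymes, 92.9% of those that rose over IL-3 and 86.7% of those that rose over TGF-β alone. They also shared 4 fatty acid enzymes, Acaca, Fasn, Scd1 and Scd2. These were 80.0% of those that rose over IL-3 and 66.7% of those that rose over TGF-β alone. The share of all genes that rose in both was not counted, so whether these shares are particular to the 2 lists cannot be told.

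On the branch from squalene, the same enzymes stood out from TGF-β alone. Sqle had 166 and 161 CPM with SCF plus 1 ng/mL TGF-β and 156 and 153 CPM with SCF plus 10 ng/mL, against 37.3 and 47.4 CPM with TGF-β alone at 1 and 10 ng/mL, 3.77-fold (1.91 ± 0.16, adjusted p = 5.36e-07). Cyp51 had 152 and 132 and then 129.6 and 134 CPM with SCF at the 2 doses, against 35.6 and 31.1 CPM with TGF-β alone, 4.11-fold (2.04 ± 0.18, adjusted p = 1.31e-06). In both genes the 4 libraries with SCF stood well above both libraries without it. Msmo1 had 167 and 113 CPM with SCF plus 1 ng/mL and 151 and 138 CPM with SCF plus 10 ng/mL, against 36.5 and 45.8 CPM with TGF-β alone (1.80 ± 0.23, adjusted p = 2.89e-05). Fdft1 had 56.0 and 45.1 CPM with SCF plus 1 ng/mL and 55.9 and 47.8 CPM with SCF plus 10 ng/mL, against 12.7 and 13.2 CPM with TGF-β alone (1.98 ± 0.31, adjusted p = 0.00018). Lss had 169 and 138 CPM with SCF plus 1 ng/mL and 141 and 119 CPM with SCF plus 10 ng/mL, against 78.1 and 75.4 CPM with TGF-β alone (0.89 ± 0.16, adjusted p = 0.000656). No SCF library of these genes reached down to a library with TGF-β alone.

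The early steps moved in the same direction. Hmgcs1 had 211 and 138 CPM with SCF plus 1 ng/mL and 147 and 129 CPM with SCF plus 10 ng/mL, against 54.3 and 52.8 CPM with TGF-β alone (1.54 ± 0.23, adjusted p = 0.000131). Mvk had 43.4 and 41.5 CPM and 33.1 and 29.9 CPM in the same order, against 8.48 and 17.9 CPM with TGF-β alone (1.57 ± 0.26, adjusted p = 0.000372). Acat2 had 35.4 and 26.7 CPM and 34.0 and 27.7 CPM, against 7.64 and 12.4 CPM (1.67 ± 0.30, adjusted p = 0.000804). The mevalonate steps thus stood above TGF-β alone in each SCF library, and so did the 2 low genes that follow. Mvd had 42.5 and 35.6 CPM and 26.4 and 22.3 CPM, against 7.64 and 6.22 CPM with TGF-β alone (2.16 ± 0.45, adjusted p = 0.00204). Idi1 had 13.9 and 6.53 CPM and 11.6 and 6.52 CPM, against 2.55 and 3.89 CPM with TGF-β alone (1.63 ± 0.54, adjusted p = 0.0373). Pmvk and Fdps were not called, at adjusted p of 0.0987 and 0.0733, and Ggps1 spanned 21.5 and 26.7 CPM and 23.7 and 21.2 CPM with SCF, against 25.5 and 20.2 CPM without it.

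Of the late enzymes, Nsdhl had 77.5 and 64.1 CPM with SCF plus 1 ng/mL TGF-β and 72.8 and 58.1 CPM with SCF plus 10 ng/mL, against 20.4 and 31.1 CPM with TGF-β alone (1.44 ± 0.23, adjusted p = 0.000211). Sc5d had 79.2 and 70.6 CPM and 80.9 and 84.2 CPM, against 39.9 and 28.8 CPM with TGF-β alone (1.22 ± 0.19, adjusted p = 0.000174). Hsd17b7 had 26.5 and 16.6 CPM and 8.49 and 13.6 CPM, against 3.39 and 1.55 CPM with TGF-β alone (2.71 ± 0.58, adjusted p = 0.00255). Ebp and Dhcr7, which did not pass over IL-3, were called here. Ebp had 75.0 and 94.4 CPM and 90.3 and 85.8 CPM, against 58.5 and 54.4 CPM (0.61 ± 0.17, adjusted p = 0.013). Dhcr7 had 47.2 and 25.5 CPM and 43.3 and 31.5 CPM, against 18.7 and 21.8 CPM (0.89 ± 0.29, adjusted p = 0.0327). The groups did not overlap in these 5 genes, but did in Tm7sf2, which had 17.3 and 13.7 CPM and 12.5 and 7.06 CPM, against 10.2 and 6.22 CPM, and was not called.

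Fasn had 243 and 237 CPM with SCF plus 1 ng/mL TGF-β and 210.0 and 215 CPM with SCF plus 10 ng/mL, against 45.0 and 66.1 CPM with TGF-β alone, 4.14-fold (2.05 ± 0.16, adjusted p = 2.98e-07). Acaca had 24.0 and 18.4 CPM and 28.2 and 21.2 CPM, against 8.48 and 6.99 CPM with TGF-β alone (1.57 ± 0.37, adjusted p = 0.00496). Acly, upstream of both, had 260.2 and 253 CPM and 219 and 214 CPM, against 171 and 164 CPM, a smaller difference (0.49 ± 0.14, adjusted p = 0.0184). All 3 genes of this chain were higher in each SCF library. Scd2 had 154 and 96.1 CPM and 123 and 69.5 CPM, against 33.9 and 50.5 CPM with TGF-β alone (1.42 ± 0.28, adjusted p = 0.00159). Scd1 had 17.7 and 10.7 CPM and 11.2 and 6.52 CPM, against 0.849 and 0.777 CPM (adjusted p = 0.00294). For Scd1 the groups held 97 and 2 counts, a ratio of 14.7 with a 95% counting interval of 3.96 to 123. Me1 had 16.8 and 24.9 CPM and 31.7 and 19.0 CPM, against 11.0 and 6.22 CPM (1.46 ± 0.37, adjusted p = 0.0086).

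Acss2 was far lower with SCF, at 185 and 144 CPM with 1 ng/mL TGF-β and 209.6 and 158 CPM with 10 ng/mL, against 473 and 439 CPM with TGF-β alone, 2.61-fold lower (-1.38 ± 0.15, adjusted p = 7.90e-06). Fads1, the desaturase that makes arachidonic acid, fell as well, to 223 and 189.9 CPM and 203 and 175 CPM, against 341 and 300.0 CPM (-0.69 ± 0.15, adjusted p = 0.00286). No SCF library of either gene reached a library with TGF-β alone. Fads2, its neighbour on chromosome 19 (Fads2 at chr19:10062765-10101746, Fads1 at chr19:10182888-10196877, on opposite strands), had 67.8 and 49.9 CPM and 68.4 and 44.0 CPM, against 39.0 and 35.7 CPM, and was not called (adjusted p = 0.0774). Elovl6 had 8.00 and 7.12 CPM and 5.36 and 3.26 CPM with SCF, and 6.79 and 7.77 CPM with TGF-β alone, overlapping and not called.

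Of the 5 regulators 3 rose, Srebf1 to 169.7 and 150.2 CPM with SCF plus 1 ng/mL and 184 and 159.6 CPM with SCF plus 10 ng/mL, against 88.2 and 104 CPM with TGF-β alone (0.79 ± 0.14, adjusted p = 0.000801). Insig1 had 91.0 and 63.5 CPM and 78.2 and 53.8 CPM, against 30.5 and 33.4 CPM (1.17 ± 0.24, adjusted p = 0.00215). Srebf2 had 99.4 and 107 CPM and 108 and 97.2 CPM, against 66.2 and 59.8 CPM (0.71 ± 0.15, adjusted p = 0.00251). Scap had 33.3 and 35.0 CPM and 42.9 and 37.5 CPM, against 32.2 and 33.4 CPM. Insig2 had 28.6 and 30.9 CPM and 18.3 and 19.5 CPM, against 28.0 and 18.6 CPM, and neither was called. Stard4 had 69.9 and 57.6 CPM and 46.9 and 59.2 CPM, against 19.5 and 22.5 CPM (1.47 ± 0.28, adjusted p = 0.000977). Npc1 had 41.7 and 39.8 CPM and 48.7 and 46.7 CPM, against 48.4 and 43.5 CPM, and was not called.

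Over TGF-β alone, 12 to 16 sterol enzymes were called when each library was left out in turn. Idi1, Ebp and Dhcr7 lost their calls in at least 1 of these fits, and so did Acly, Acaca, Me1, Scd2 and Fads1, mostly when a library with TGF-β alone was the one left out. Without either of those libraries 12 sterol and 5 fatty acid enzymes were called, where 11.3% of all genes changed in either direction without the library at 1 ng/mL and 16.1% without the one at 10 ng/mL. Proliferation genes were higher here too, 10 of 10, with sums of 1056 to 1386 CPM with SCF and TGF-β and 168 and 420 CPM with TGF-β alone, and their part was not tested.

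In the same comparison 2 of the 3 basophil markers rose. Mcpt8 had 11.8 and 23.1 CPM with SCF plus 1 ng/mL and 11.2 and 24.98 CPM with SCF plus 10 ng/mL, against 1.70 and 6.99 CPM with TGF-β alone (adjusted p = 0.00677). Cd200r3 had 680.5 and 624 CPM and 641 and 578 CPM in the same order, against 503 and 431 CPM (0.44 ± 0.12, adjusted p = 0.0143). Each lost its call without 1 library with TGF-β alone, Mcpt8 without that at 1 ng/mL (adjusted p = 0.182) and Cd200r3 without that at 10 ng/mL (adjusted p = 0.172). The basophil list summed to 604 to 702 CPM with SCF and TGF-β, against 510 and 456 CPM with TGF-β alone. Siglecf fell to 1.26 and 0 CPM and 1.79 and 0.543 CPM, against 5.94 and 10.1 CPM (adjusted p = 0.00983). The part of these markers was not tested either.

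Over all 10 libraries, the 6 libraries with SCF were all above the 4 without it in 22 of the 36 members, 14 sterol enzymes, 6 fatty acid enzymes and 2 regulators, against 9.31% of all genes tested, and all below them in 0 members, against 8.11% of genes.

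**Figure D3:**
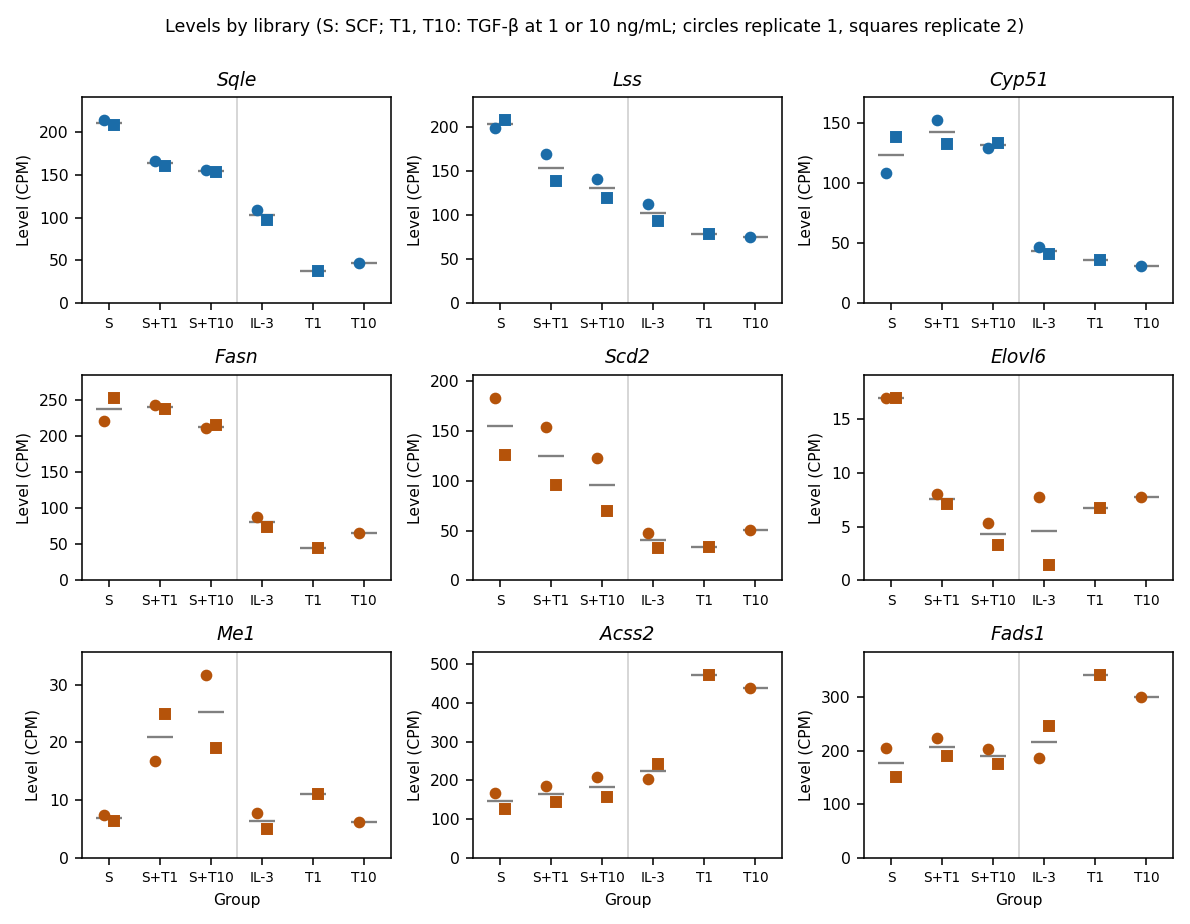
CPM of 9 members in each library, by group: each point is 1 library, lines are group means, and the 2 groups with TGF-β alone have 1 point each. Sqle, Lss, Cyp51, Fasn and Scd2 were higher in the 6 libraries with SCF, Acss2 was highest with TGF-β alone at 473 and 439 CPM, and Me1 and Elovl6 differed with TGF-β among the SCF groups.

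TGF-β alone against IL-3 alone asks what TGF-β does without SCF. Its 2 doses had 1 library each and were compared as their mean; the fit borrowed their spread from the groups with replicates. Of the 36 members 2 were called, where 3.48% of all genes were, 1.36% upward and 2.12% downward. This comparison shares the IL-3 libraries with SCF against IL-3. It also shares the libraries with TGF-β alone with the comparison of SCF and TGF-β over TGF-β alone. It is therefore independent of neither.

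Sqle fell to 37.3 and 47.4 CPM with TGF-β alone at 1 and 10 ng/mL, against 108 and 97.5 CPM with IL-3 alone, 2.45-fold lower (-1.29 ± 0.18, adjusted p = 0.000314). Both TGF-β libraries were below both IL-3 libraries, and the call held in every alternative run. The other 18 sterol enzymes were not called, and their log2 fold changes ranged from -0.88 to 0.15. The median of all 19 was -0.43, against -0.02 over all genes, and 18 of 19 were negative. Msmo1 was nearest to the threshold, with 36.5 and 45.8 CPM with TGF-β alone and 92.8 and 55.4 CPM with IL-3 (adjusted p = 0.0774). Its groups did not overlap, but the share of all genes without overlap was not counted here. It was called in the fits without the low-count filter, of the compared groups only, with a replicate block and in 3 of the 10 that left out a library. In group means, each of the 19 sterol enzymes had its lowest level of the 6 groups with TGF-β alone, 10 at 1 ng/mL and 9 at 10 ng/mL. These 2 groups had 1 library each and the fewest gene counts, 1295048 and 1237382. The share of all genes that were lowest there was not counted.

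Acss2 rose to 473 and 439 CPM with TGF-β alone, against 204 and 244 CPM with IL-3 (1.03 ± 0.18, 2.04-fold, adjusted p = 0.00262), and was called in all fits but the one without IL-3 replicate 1 (adjusted p = 0.0697). Fads1 had 341 and 300.0 CPM with TGF-β alone and 187 and 246 CPM with IL-3 (adjusted p = 0.0951). Fasn had 45.0 and 66.1 CPM with TGF-β alone and 88.1 and 73.7 CPM with IL-3 (adjusted p = 0.0981). Neither was called, and in both genes the groups did not overlap. The share of all genes without overlap in this comparison was not counted. The median over the fatty acid enzymes was 0.09, with 6 of 10 positive. No regulator was called; Srebf2 had 66.2 and 59.8 CPM with TGF-β alone and 91.2 and 98.2 CPM with IL-3 (adjusted p = 0.0717), again without overlap.

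**Figure D4:**
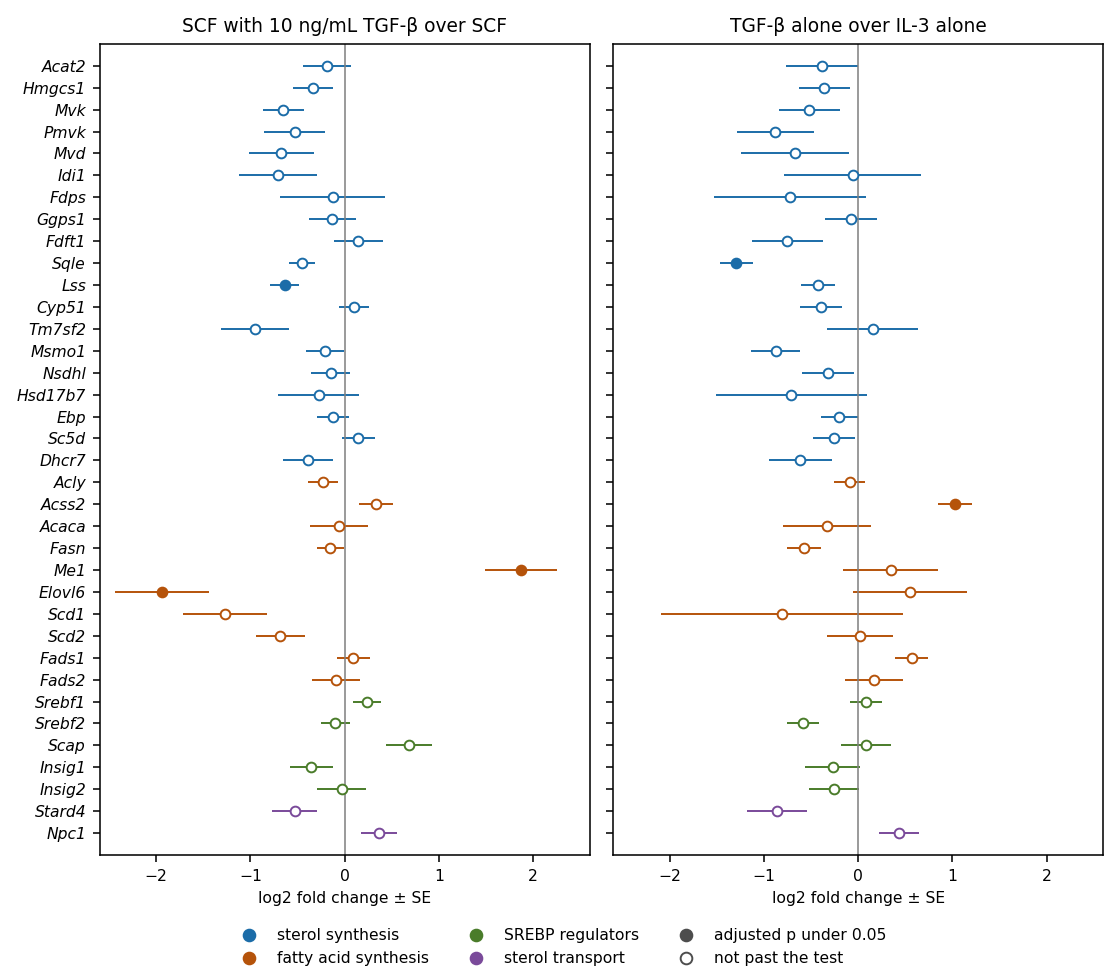
Log2 fold change ± SE of each member, for SCF with 10 ng/mL TGF-β over SCF on the left and TGF-β alone over IL-3 alone on the right; filled points had an adjusted p under 0.05. Of the 36 members 3 were called on the left, Lss, Elovl6 and Me1, against 8.37% of all genes, and 2 on the right, Sqle and Acss2, against 3.48%; on the right 18 of 19 sterol enzymes lay below 0.

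TGF-β on top of SCF was compared with SCF at each dose; these comparisons share the SCF libraries. With 1 ng/mL, 1 of the 36 members was called, Me1, which rose; 1.89% of all genes rose and 4.64% changed in either direction. With 10 ng/mL, 3 were called, Me1 upward and Lss and Elovl6 downward, where 3.78% of all genes rose and 4.59% fell, 8.37% in all.

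Me1 had 7.51 and 6.30 CPM with SCF, 16.8 and 24.9 CPM with SCF plus 1 ng/mL TGF-β and 31.7 and 19.0 CPM with SCF plus 10 ng/mL. The 4 libraries with TGF-β were all above the 2 without, by a log2 fold change of 1.55 ± 0.39 at 1 ng/mL (adjusted p = 0.0278) and 1.87 ± 0.38 at 10 ng/mL (adjusted p = 0.00447). Elovl6 had 17.0 and 17.0 CPM with SCF, 8.00 and 7.12 CPM with 1 ng/mL and 5.36 and 3.26 CPM with 10 ng/mL, again without overlap but in the opposite direction (-1.94 ± 0.49 at 10 ng/mL, adjusted p = 0.0203). Lss had 199 and 207 CPM with SCF, 169 and 138 CPM with 1 ng/mL and 141 and 119 CPM with 10 ng/mL (-0.64 ± 0.16 at 10 ng/mL, adjusted p = 0.0172). These calls were not stable to leaving out 1 library: Me1 at 1 ng/mL, Lss and Elovl6 were not called when either SCF library was left out. The adjusted p reached 0.213 for Me1 at 1 ng/mL without replicate 2 of that group, 0.105 for Me1 at 10 ng/mL without replicate 1, 0.172 for Lss without replicate 2 of SCF with 10 ng/mL and 0.149 for Elovl6 without the same library. Elovl6 was not called without replicate 1 of SCF with 10 ng/mL either (adjusted p = 0.0702).

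The remaining sterol enzymes had log2 fold changes of -0.95 to 0.15 at 10 ng/mL and a median over all 19 of -0.28, with 16 of 19 negative. Sqle had 214 and 208 CPM with SCF, 166 and 161 CPM with 1 ng/mL and 156 and 153 CPM with 10 ng/mL, and was not called at either dose (adjusted p = 0.174 and 0.0557). Mvk had 51.1 and 47.9 CPM with SCF, 43.4 and 41.5 CPM with 1 ng/mL and 33.1 and 29.9 CPM with 10 ng/mL (adjusted p = 0.0796 at 10 ng/mL). In both genes all 4 libraries with TGF-β were below the 2 with SCF, but the share of all genes like this was not counted. Neither gene passed at either dose with 1 mean per group. Of the sterol enzymes, 0 were called at 1 ng/mL by edgeR and 0 of the 18 with an adjusted p by DESeq2, and 2 had an unadjusted p under 0.05. Scd1 had 26.0 and 17.0 CPM with SCF, 17.7 and 10.7 CPM with 1 ng/mL and 11.2 and 6.52 CPM with 10 ng/mL, and Scd2 184 and 126, 154 and 96.1 and 123 and 69.5 CPM in the same order, with adjusted p of 0.0956 and 0.133 at 10 ng/mL. With the replicate number as a block, Mvk, Sqle, Scd1 and Scd2 were also called at 10 ng/mL (adjusted p of 0.00158 to 0.0434), where 12.0% of all genes were. Proliferation genes summed to 649 and 701 CPM with SCF, 1056 and 1323 CPM with 1 ng/mL and 1220 and 1386 CPM with 10 ng/mL. Their part was not tested.

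No member was called between the 2 doses in the presence of SCF by either tool: edgeR called 0 of 36 and DESeq2 0 of 36, where edgeR called 0.0178% of all genes, and 2 members, Hsd17b7 and Insig2, had an unadjusted p under 0.05. Insig2 had 18.3 and 19.5 CPM with 10 ng/mL and 28.6 and 30.9 CPM with 1 ng/mL, and Hsd17b7 had 8.49 and 13.6 CPM with 10 ng/mL and 26.5 and 16.6 CPM with 1 ng/mL.

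Whether TGF-β acted differently with and without SCF was tested as an interaction on the log2 scale. With 1 mean per group, edgeR called 0 of 36 members, where 0.293% of all genes were called, and DESeq2 called 0 of the 18 members to which it gave an adjusted p; 7 had an unadjusted p under 0.05 by edgeR. The smallest p was that of Sqle: the difference made by TGF-β was 0.88 ± 0.21 log2 units higher with SCF than without it (adjusted p = 0.124); with the replicate number added as a block it was called (adjusted p = 0.0357). For Acss2 the same interaction was -0.78 ± 0.24 (adjusted p = 0.268), for Elovl6 -2.09 ± 0.73 (adjusted p = 0.351) and for Srebf2 0.49 ± 0.22 (adjusted p = 0.510).

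The sterol and fatty acid enzymes were set side by side by the medians of their log2 fold changes. With SCF over IL-3 the medians were 1.15 for sterol and 1.14 for fatty acid enzymes, a difference of 0.01. Over TGF-β alone they were 1.57 and 1.03, a difference of 0.54, and with TGF-β alone over IL-3 they were -0.43 and 0.09, a difference of -0.52. The last 2 comparisons share the libraries with TGF-β alone, on opposite sides, so their differences are not independent of each other. With each library left out in turn, the difference ran from 0.01 to 0.15 with SCF over IL-3, from 0.41 to 1.11 over TGF-β alone and from -0.69 to -0.47 for TGF-β alone over IL-3. The fatty acid list was also more mixed within itself: it held members called in opposite directions in 3 comparisons, whereas no sterol enzyme fell with SCF and none rose with TGF-β.

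Other genes of these pathways, from lists that hold no member, moved to different degrees. Of the 15 tested genes of acyl-CoA synthesis and elongation, 6 rose and 0 fell with SCF over IL-3, where 5.71% of all genes rose, and 9 rose and 0 fell over TGF-β alone, where 13.3% rose. Hsd17b12, a reductase of very long chain elongation, had 113 and 147 CPM with SCF, against 57.5 and 63.9 CPM with IL-3 (1.10 ± 0.20, adjusted p = 0.00222). Mid1ip1, an activator of acetyl-CoA carboxylase, had 61.6 and 72.5 CPM with SCF, against 36.8 and 28.1 CPM with IL-3 (1.02 ± 0.21, adjusted p = 0.00508). Aacs, which activates ketone bodies for lipid synthesis, had 165 and 197 CPM with SCF, against 100.0 and 91.9 CPM with IL-3 (0.91 ± 0.16, adjusted p = 0.0016). Each of the 3 was above IL-3 in both SCF libraries, and the call of Mid1ip1 was lost without IL-3 replicate 2 (adjusted p = 0.0783) and without SCF replicate 2 (adjusted p = 0.0586). The elongase Elovl7 differed with TGF-β among the SCF groups, at 58.1 and 66.2 CPM with SCF, 31.2 and 30.3 CPM with 1 ng/mL and 22.8 and 22.8 CPM with 10 ng/mL (-1.44 ± 0.21 at 10 ng/mL, adjusted p = 0.000208).

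Genes of sterol efflux, storage and oxysterol sensing did not share a direction: of 13 tested, 3 rose and 1 fell with SCF over IL-3, against 5.71% and 3.46% of all genes, and 2 rose and 2 fell with TGF-β alone over IL-3, against 1.36% and 2.12%. Soat1, which esterifies cholesterol for storage, had 405 and 407 CPM with TGF-β alone at 1 and 10 ng/mL, against 168 and 173 CPM with IL-3 (1.25 ± 0.14, adjusted p = 3.46e-05). In the libraries with SCF it had 163 and 173 CPM without TGF-β, 209 and 218 CPM with 1 ng/mL and 209 and 213 CPM with 10 ng/mL, so both TGF-β alone libraries stood above the other 8. Its interaction was called (-0.91 ± 0.18, adjusted p = 0.0399), but not when any 1 of the 10 libraries was left out. Osbpl8, an oxysterol-binding protein, had 373 and 311 CPM with SCF, against 109 and 96.1 CPM with IL-3 (1.73 ± 0.17, adjusted p = 1.90e-05). Soat2, the paralog of Soat1, fell to 15.5 and 12.6 CPM with SCF, against 30.6 and 37.9 CPM with IL-3 (-1.26 ± 0.29, adjusted p = 0.0127), a call lost without IL-3 replicate 2 (adjusted p = 0.126) and without SCF replicate 2 (adjusted p = 0.114). The sterol exporter Abcg1 had 122 and 120.4 CPM with SCF, against 54.4 and 61.8 CPM with IL-3 (1.06 ± 0.18, adjusted p = 0.00169). In none of these 3 genes did the groups overlap. Abca1, another sterol exporter, had the largest called interaction of the list (-4.22 ± 0.80, adjusted p = 0.037), on few counts. It had 13.0 and 8.19 CPM with SCF, 4.63 and 1.78 CPM when 1 ng/mL TGF-β was added and 1.79 and 0.543 CPM when 10 ng/mL was added. With TGF-β alone it had 11.9 and 10.1 CPM, against 3.63 and 2.11 CPM with IL-3. The interaction was lost in 6 of the 10 fits that left out a library (adjusted p of 0.0648 to 0.163).

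Of the 11 genes that use isoprenoids for protein prenylation, ubiquinone and dolichol, edgeR called 0 with SCF over IL-3, 1 at an unadjusted p under 0.05, and DESeq2 called 0 of the 4 to which it gave an adjusted p. In other comparisons edgeR called Zmpste24 higher with SCF and TGF-β over TGF-β alone, and Coq2 higher with 10 ng/mL TGF-β added to SCF. Of all genes 13.3% and 3.78% rose there, and DESeq2 called neither gene. The 8 genes of SREBP processing and sterol-regulated degradation were called in 0 of the 7 comparisons by edgeR, with 0 to 2 per comparison at an unadjusted p under 0.05, and in 0 by DESeq2, which gave an adjusted p to 3 to 8 of them per comparison. Of 11 phospholipid and triglyceride genes 0 were called with SCF over IL-3, with 4 at an unadjusted p under 0.05 and 0 by DESeq2 of the 5 to which it gave an adjusted p. In that comparison 9.17% of all genes were called by edgeR, and 2623 of 11247 had an unadjusted p under 0.05. With SCF and TGF-β over TGF-β alone, edgeR called Agpat1, Lpin2 and Pcyt1a lower and Pcyt2 higher. There 11.4% of all genes fell and 13.3% rose, and DESeq2 called 0 of the 11 phospholipid and triglyceride genes. Pcyt1a, which makes CDP-choline for phosphatidylcholine, fell with 10 ng/mL TGF-β added to SCF (-1.23 ± 0.21, adjusted p = 0.000832): it had 247 and 161 CPM with SCF, 117 and 99.1 CPM with 1 ng/mL and 92.1 and 81.4 CPM with 10 ng/mL. Of 10 tested genes of fatty acid oxidation, 1, the dehydrogenase Acadl, rose with SCF over IL-3 (0.56 ± 0.16, adjusted p = 0.0368), a call that was lost in the DESeq2 fit (adjusted p = 0.0916). The call was also lost without IL-3 replicate 1, IL-3 replicate 2 or SCF replicate 2, at log2 fold changes of 0.61, 0.52 and 0.37. Acadl also rose with SCF and TGF-β over TGF-β alone (0.61 ± 0.15, adjusted p = 0.00612). That call was lost without the TGF-β alone library at 1 ng/mL, at a log2 fold change of 0.55.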

How the data were processed

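RNA from 10 libraries of mouse BMMCs in 6 groups was made into SmartSeq2 and Nextera XT libraries and sequenced as paired 38-base reads, per the labels' protocols. The authors deposited whole-number counts of reads per gene. A further 5 rows, which named no gene, were left out of library sizes; genes took 16.4% to 26.6% of all counted reads. STAR, HTSeq, DESeq2 and GRCm38 are named in the submitters' processing notes; the sources used here give no versions or counting options.

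The tests were run with edgeR 4.0.16 under R 4.3.3 (TMM, filterByExpr with a minimum count of 10, quasi-likelihood F tests), with 1 mean per group over all 10 libraries, 4 residual degrees of freedom and a common biological coefficient of variation of 0.126. The filter kept 11247 genes, all 36 members among them. In all, 7 contrasts were tested, with Benjamini-Hochberg adjustment over all genes at 0.05. SE is the absolute log2 fold change over the root of F. Replicate libraries differed by more than counting error, with a chi-square per gene of 3.20 to 4.12. Count ratios of Scd1 have 95% exact intervals, which cover counting error only. Loci and exon lengths came from GENCODE vM21 on GRCm38 and promoter windows from RefSeq on GRCm38.p6.

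Alternatives were DESeq2 size factors, DESeq2 1.42.0, no filter, only the compared groups, a replicate block, and each library left out in turn. The scripts were tested on simulated data for SCF against IL-3. The test recovered 51% of 100 genes with a log2 change of 1 and 84% of 100 with a change of 2. Of 143 calls 8 were false. A gene that was not called may therefore still have changed. Members and lists were chosen with earlier results of these data known. Members called in at least 1 comparison (29) and the SREBP regulators are given in full, the others by range; of the other lists at most 4 called genes per comparison are named, largest change first. Basophil, eosinophil and mast cell markers are named because they moved in these comparisons.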

Additional observations from a re-analysis of the deposited data

How the results depend on the processing

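Of 56 calls of a member in a comparison, 27 were kept in every alternative that gave an adjusted p, and no value changed sign among them or among the other named genes. All 56 were kept with DESeq2 size factors and without the filter. DESeq2 called 8 sterol and 2 fatty acid enzymes with SCF over IL-3, where it called 4.19% of all genes tested. With 1 ng/mL TGF-β added to SCF it called 0 fatty acid enzymes, where it called 2.4% of all genes. With 10 ng/mL it called 0 sterol and 1 fatty acid enzyme, where it called 3.89% of all genes. Without the filter, 4 fatty acid enzymes were called with 10 ng/mL TGF-β added to SCF, where 4.4% of all genes were. For TGF-β alone over IL-3 that setting called 2 sterol and 2 fatty acid enzymes, where 2.31% of all genes were called. Fitting the compared groups only also gave 2 and 2 in that comparison, where 6.91% of all genes were called. The cause of these moves was not tested.

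Same-numbered libraries deviated together among the 3 SCF groups (r = 0.20 to 0.23 across genes) but not with IL-3 (r = -0.003 to 0.022), so the numbers were not taken to pair the samples over all groups. With the replicate block all 56 calls were kept. With 10 ng/mL TGF-β added to SCF, 3 sterol and 4 fatty acid enzymes were called (12% of all genes). With TGF-β alone, 2 sterol and 2 fatty acid enzymes were called (6.38% of all genes). In the interaction 1 sterol enzyme, Sqle, was called (0.907% of all genes).

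With each of the 10 libraries left out in turn, the counts for SCF over IL-3 ran from 4 to 14 sterol and 3 to 7 fatty acid enzymes. Added to SCF, 1 ng/mL TGF-β gave 0 to 1 fatty acid enzymes, and 10 ng/mL gave 0 to 1 sterol and 1 to 2 fatty acid enzymes. TGF-β alone gave 1 to 2 sterol and 0 to 1 fatty acid enzymes, and SCF over TGF-β alone gave 12 to 16 and 5 to 9. The median of the sterol minus that of the fatty acid log2 fold changes ran from 0.011 to 0.150 for SCF over IL-3, -0.161 to -0.011 and -0.170 to -0.010 for 1 and 10 ng/mL TGF-β added to SCF, -0.076 to 0.033 between these doses, -0.694 to -0.471 for TGF-β alone, 0.407 to 1.11 for SCF over TGF-β alone and 0.317 to 0.697 in the interaction. For the interaction the compared groups are all groups, so that fit is the same and was not repeated. A lone library left in a group is assumed to vary like the other groups. The shares of all genes called also moved between these fits, so the ranges of counts do not describe the members alone. Depth limits Scd1, Idi1, Hsd17b7 and Elovl6, with few counts in IL-3.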
